A study of Rattus norvegicus with 8 samples.

Results

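S100a8, S100a9 and Lcn2 encode antimicrobial proteins of neutrophils and injured epidermis, and their transcripts were followed here in wounded and unwounded skin of rat pups. The 3 genes were taken by Ensembl ID, which were ENSRNOG00000011557 for S100a8, ENSRNOG00000011483 for S100a9 and ENSRNOG00000013973 for Lcn2. All probes that carried one of these IDs were used, which gave 2 probes per gene and 6 of the 38948 probes on the array. The brighter and dimmer probe were Rn30010640 and ENSRNOG00000011557 for S100a8, ENSRNOG00000011483 and Rn30010572 for S100a9, and R002276_01 and ENSRNOG00000013973 for Lcn2. The genes were chosen with the difference between wounded and control skin already known. That difference is therefore given as a description, with no test.

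The study compared skin of Long-Evans rat pups, an outbred pigmented laboratory stock, in 2 groups of 4 samples each. In the wounded group a 3-mm cut had been made in the back skin 3 days after birth, and the skin at the cut was taken 36 h later. The control group was skin from the matching site of pups that had not been cut, for which the labels give no age at sampling. The study's title is about wounds that guard young rats against chemotherapy-induced alopecia by way of interleukin-1β, but no treatment other than the cut is given for these samples. The labels do not say whether each sample came from a separate pup or from a pool, so the spread within a group may be partly technical.

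S100a8 and S100a9 are small calcium-binding proteins that pair to form calprotectin, which withholds zinc and manganese from microbes. Neutrophils store calprotectin in large amounts in the cytosol, and keratinocytes make it when the epidermis is injured or inflamed. Outside cells, the pair can act as a danger signal through the receptor Tlr4. Lcn2, also called neutrophil gelatinase-associated lipocalin, captures the siderophores with which bacteria collect iron. It is stored in neutrophil granules, and epithelial cells make it in response to interleukin-1 and interleukin-17. In whole skin, more cells of a type and more RNA per cell cannot be told apart.

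Each array gave between 16930 and 20030 probes that the scanner software found above background, or 43.5% to 51.4% of all probes. Local background had a median of 41 to 44 intensity units, and the brightest probe spot of an array read 27951 to 49584. Signal is given as median pixel intensity, or as log2 of the background-corrected and quantile-normalised intensity. All controls were scanned before all wounded samples, so scan order and group cannot be told apart. The array names its probes by ID and the files pair none of them with a gene symbol, so the skin label was not checked against marker genes, and markers of neutrophils and keratinocytes were not analysed here.

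All 3 genes gave dim spots in unwounded skin and bright ones in wounded skin. For S100a9 and S100a8 the 4 wounded samples lay closer together than for Lcn2. For Lcn2, wounded 1 stayed far below the other 3 wounded samples, on both probes, while its S100a8 and S100a9 signals were among the highest. With the brighter probe of each gene, wounded skin exceeded control skin by 6.51 ± 0.21 (SE) on the log2 scale for S100a9, 5.37 ± 0.22 (SE) for S100a8 and 4.90 ± 0.56 (SE) for Lcn2, with n = 4 per group. These are limma's moderated standard errors, which draw each gene's variance toward that of other features. From the samples of each gene alone the SE was 0.19 for S100a9, 0.21 for S100a8 and 0.92 for Lcn2.

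**Figure D1:**
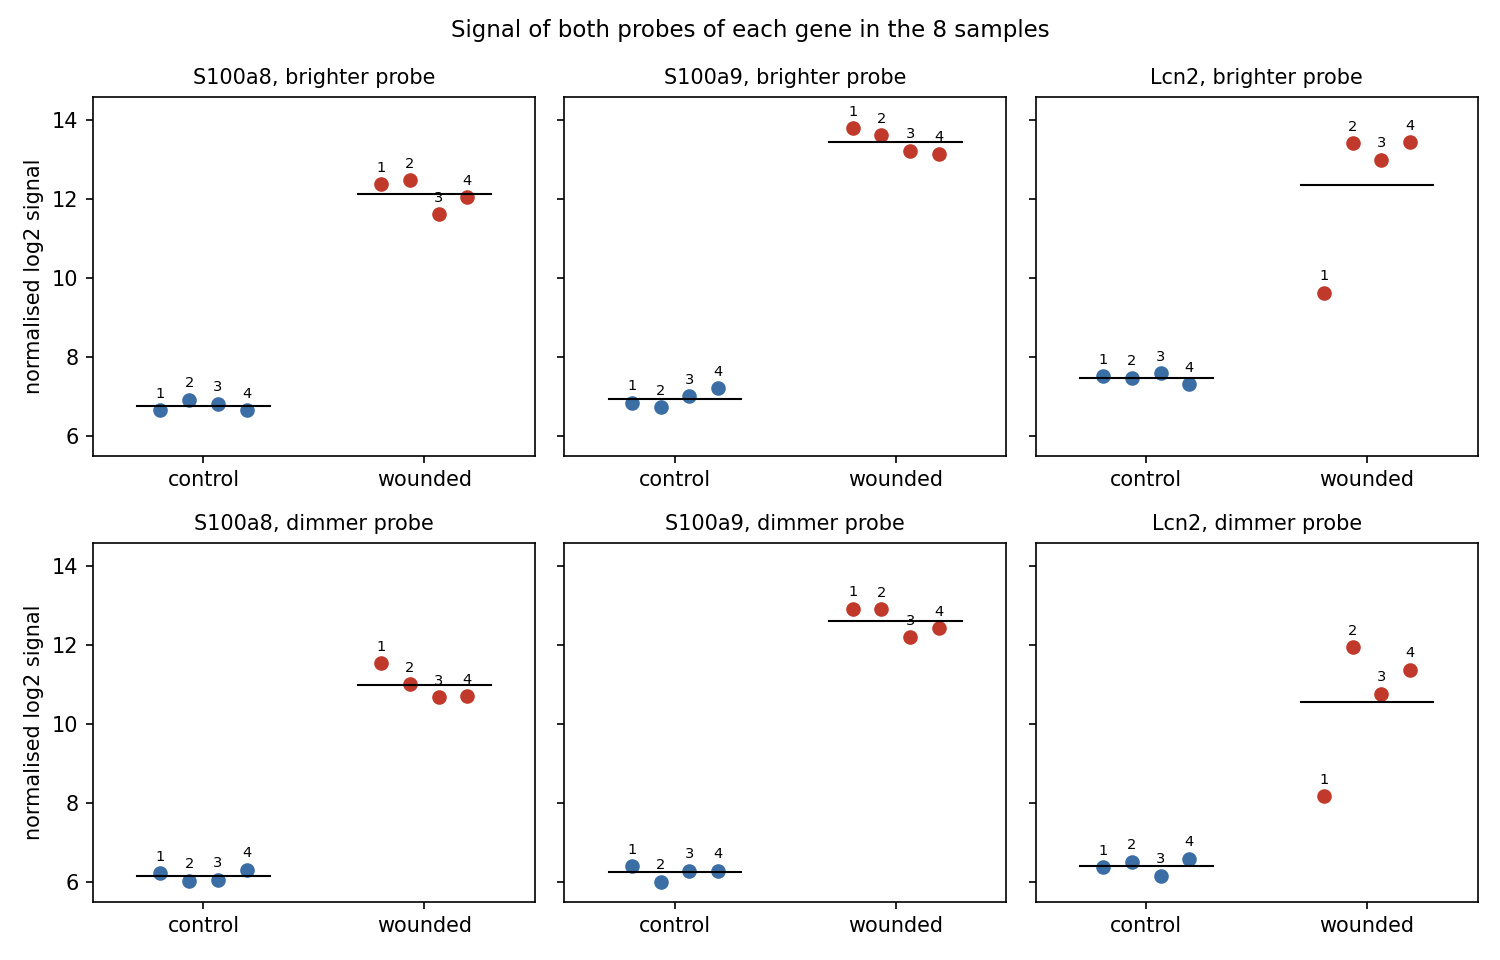
Normalised log2 signal (vertical axis) of the brighter probe (upper row) and the dimmer probe (lower row) of S100a8, S100a9 and Lcn2, with 1 point per sample numbered by replicate and a line at the group mean. All wounded points lie above all control points, and for Lcn2 wounded 1 lies far below the other wounded samples.

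S100a9 was read by a brighter probe, with the intensity 114, 77, 112 and 149 in controls 1 to 4 and 16715, 13952, 10158 and 8835 in wounded 1 to 4. The lowest wounded reading was thus far above the highest control reading. On the normalised log2 scale this probe averaged 6.94 ± 0.21 (SD, n = 4) over the controls and 13.45 ± 0.31 (SD, n = 4) over the wounded samples, a 91.0-fold difference. The nearest samples of the 2 groups were 5.94 apart on that scale. The dimmer S100a9 probe read 76, 51, 67 and 70 in controls and 9173, 8975, 4940 and 5295 in wounded samples. It averaged 6.25 ± 0.17 (SD, n = 4) on the log2 scale over the controls and 12.62 ± 0.36 (SD, n = 4) over the wounded samples, a difference of 6.37, or 82.7-fold. The scanner software found both S100a9 probes on all 4 control arrays, but the dimmer one read close to its local background of 42 to 46 there. The fold of the dimmer probe therefore depends on the background correction, and the authors' deposited log2 table gave 346-fold for it.

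In the RefSeq gene table for the rat assembly GRCr8, S100a9 lies on chromosome 2 next to S100a8, with 0 genes listed between them. Pglyrp4, a peptidoglycan recognition protein gene, is the next gene on the side of S100a9, and S100a7a the next on the side of S100a8. The chromosome holds 13 genes named S100a and a number in that table, S100a8 and S100a9 included. The promoter table from RefSeq held 2 of the 3 genes, S100a9 and Lcn2. Their upstream sequences are shown because both transcripts were higher in all wounded samples. Sequence motifs bound by factors of inflammatory signalling can be looked for in them. The S100a9 stretch ends at the base before the annotated start and lies on the minus strand at chr2:178490623-178490872 of GRCr8, written 5′ to 3′ with the TATA box in capitals.
S100a9: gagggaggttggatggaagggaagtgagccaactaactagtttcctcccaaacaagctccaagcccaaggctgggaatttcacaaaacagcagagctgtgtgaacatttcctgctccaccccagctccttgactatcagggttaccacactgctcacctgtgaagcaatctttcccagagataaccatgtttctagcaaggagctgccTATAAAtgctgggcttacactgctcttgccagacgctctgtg

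The 250 bases before the start of S100a9 and of Lcn2 were searched on both strands for 5 motifs. These were GGGA and CC with any 4 bases between them for NF-kB, TTGCNNAA for C/EBP, TGANTCA for AP-1, TTCNNNGAA for STAT and TATAAA for the TATA box. The S100a9 stretch held 1 match, the TATA box from -42 to -37, and 12.9% of 33469 rat promoters of the same length held that motif. The other 4 sets of letters were not in this window.

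S100a8 was measured by a brighter probe at 93, 82, 93 and 93 in controls 1 to 4 and at 6076, 6693, 3254 and 3970 in wounded 1 to 4. The groups were again far apart, and wounded 3 and wounded 4 were the lower wounded samples. The mean log2 signal of that probe was 6.76 ± 0.13 (SD, n = 4) without a wound and 12.13 ± 0.39 (SD, n = 4) with one, a 41.4-fold difference. The nearest samples of the 2 groups were 4.70 apart. The dimmer S100a8 probe read 66, 52, 55 and 70 in controls, where it was found on 1 of 4 arrays, and 3459, 2382, 1652 and 1582 in wounded samples, where it was found on all 4. Its mean log2 signal was 6.16 ± 0.13 (SD, n = 4) without a wound and 10.99 ± 0.40 (SD, n = 4) with one, a difference of 4.83, or 28.5-fold. With its control readings close to a local background of 43 to 45, that fold depends on the background correction too, and the authors' deposited log2 table gave 140-fold.

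Background correction set the size of the S100 differences more than any sample did. The offset of 50 added to each intensity pulls dim control values upward. With an offset of 10 the difference was 135.8-fold for S100a9 and 65.5-fold for S100a8. With local background subtracted it was 171-fold and 86.9-fold, and the authors' deposited log2 table gave 181-fold and 92.6-fold. Leaving out each sample in turn kept the log2 difference between 6.39 and 6.61 for S100a9 and between 5.25 and 5.54 for S100a8. The folds with the offset of 50 are thus at the low end of these background settings. With no background correction they were 102-fold for S100a9 and 48.9-fold for S100a8. Lower folds came at the offset of 50 from the mean of the probes, 86.8-fold and 34.4-fold, and from the dimmer probes.

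**Figure D2:**
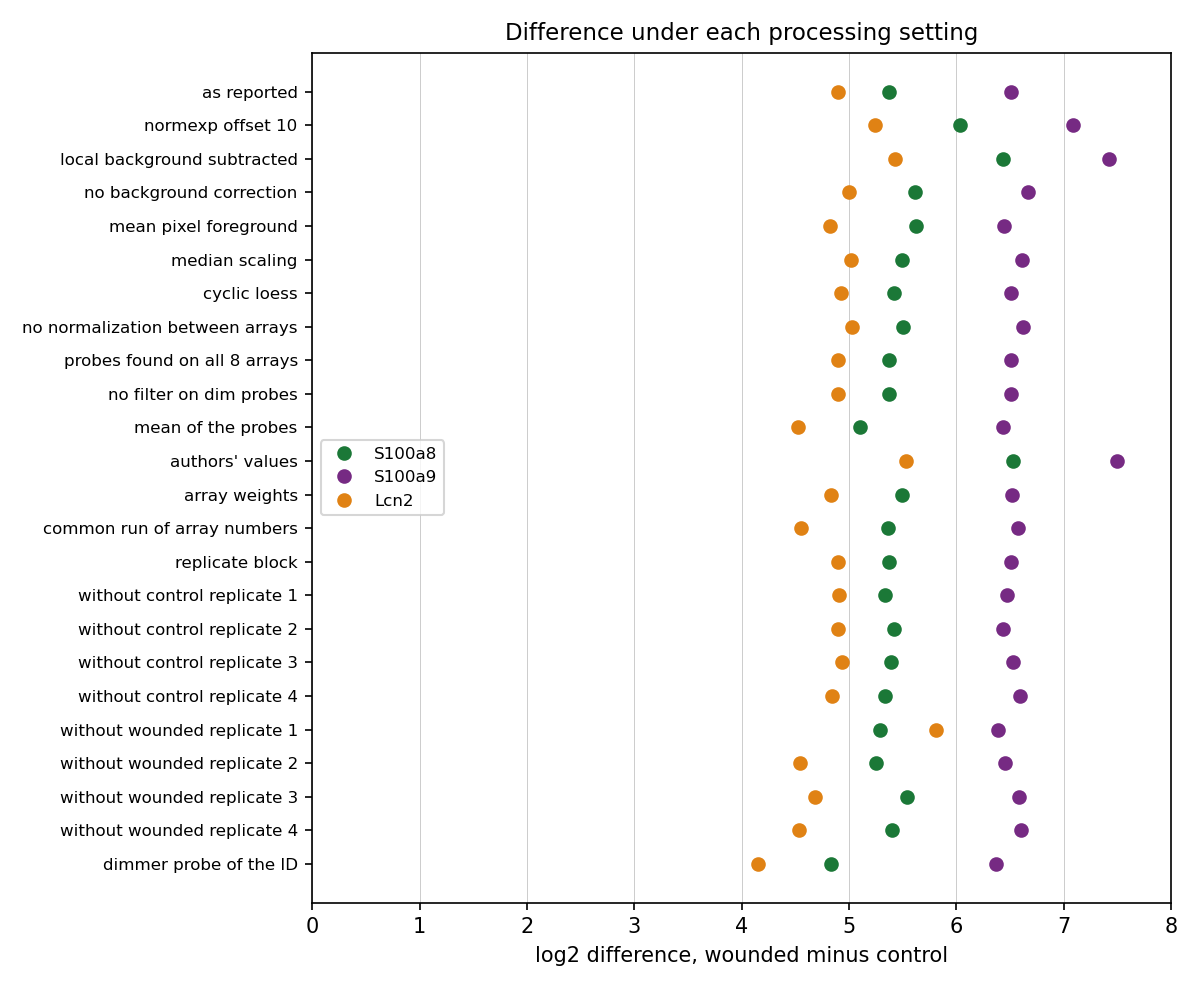
Log2 difference between wounded and control skin (horizontal axis) for S100a8, S100a9 and Lcn2 under each processing setting (vertical axis), with 1 point per gene and setting. S100a9 lies between 6.37 and 7.50, S100a8 between 4.83 and 6.53 and Lcn2 between 4.15 and 5.81.

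Lcn2 was read by its brighter probe at 202, 123, 167 and 161 in controls 1 to 4. In wounded skin that probe read 910 in wounded 1, against 12267, 8551 and 10564 in wounded 2 to 4. Wounded 1 was above every control and far below every other wounded sample. The controls averaged 7.47 ± 0.12 (SD, n = 4) on the log2 scale and the wounded samples 12.37 ± 1.84 (SD, n = 4), a 29.8-fold difference whose mean lies between wounded 1 and the other samples. Without wounded 1 the difference was 5.81, or 56.0-fold, and the SD of the other 3 wounded samples was 0.25. Wounded 1 alone was 2.16 above the control mean, or 4.46-fold.

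The dimmer Lcn2 probe likewise placed wounded 1 above all controls and below the other wounded samples. It read 75, 66, 56 and 88 in controls, where it was found on 2 of 4 arrays. It read 308 in wounded 1 and 4704, 1751 and 2571 in wounded 2 to 4. On the log2 scale the controls averaged 6.41 ± 0.19 (SD, n = 4) and the wounded samples 10.57 ± 1.67 (SD, n = 4), a difference of 4.15, or 17.8-fold. Without wounded 1 the difference for this probe was 4.95, or 31.0-fold. These folds depend on the background correction, since the control readings lay close to a local background of 41 to 43. The authors' deposited log2 table gave 54.0-fold for the dimmer probe and 46.2-fold for the brighter one over all 8 samples.

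On the brighter Lcn2 probe, wounded 1 was 3.65 below the mean of the other 3 wounded samples on the log2 scale, or 12.6-fold lower. On the dimmer probe it was 3.19 below, or 9.16-fold lower. The distance from wounded 1 to the lowest of the other wounded samples was 3.36 for the brighter probe. Under 8 other settings of background, normalisation or source of values, this distance ranged from 3.21 to 3.71. For the dimmer probe it was 2.59, with a range of 2.44 to 3.10. The low Lcn2 signal of wounded 1 was therefore present on both probes under each of these settings.

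The spots of both Lcn2 probes lay in different blocks of the array, 3 and 21. On wounded 1 their local background was 43 and 41, and on wounded 2 to 4 it was 39 to 43. The scanner software had marked 55 spots of wounded 1 as bad, where each other wounded array had 2 or 3, but neither Lcn2 spot nor any of the 8 spots around each was among the 55. The surrounding spots differed between wounded 1 and the mean of the other wounded arrays by a median of -0.05 around the brighter probe and 0.03 around the dimmer one, on the log2 scale. The furthest of them was -0.23 around the brighter probe and 0.30 around the dimmer one. The spots next to the Lcn2 spots thus showed no drop of the size seen for Lcn2. A spot near background can hardly read lower, since the offset added to each intensity holds dim values up. The intensities of the surrounding spots are not given here. Whether these spots were bright enough to show such a drop was not tested, so nothing is concluded from them about the Lcn2 spots.

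Across all 12769 tested features, 1 per Ensembl ID or unassigned probe, the distance of 3.36 was the largest between any 1 sample and the other 3 of its group. The next largest distance in either group was 2.90. Samples lay at least 1 away from the other 3 of their group in 313 instances, of which 144 were in features with a further tested probe. That further probe lay at least as far as 1 away in the same sample in 7 of these 144. At a distance of 2 or more there were 13 instances, 8 with a further tested probe, and 1 of the 8, Lcn2, was as far on both. In features of like wounded signal, within 0.5 of Lcn2, the median SD of the wounded group was 0.29. Of those 208 features, 0 had an SD above that of Lcn2.

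**Figure D3:**
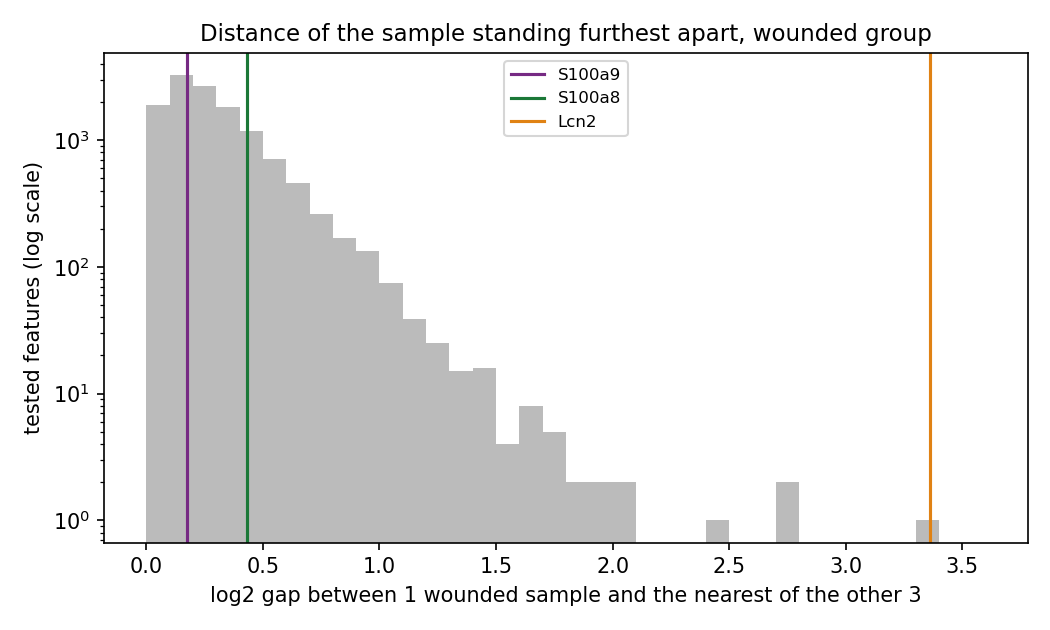
Number of tested features (vertical axis, log scale) by the log2 distance between the wounded sample that stands furthest apart and the nearest of the other 3 (horizontal axis). Lines mark S100a9 at 0.17, S100a8 at 0.43 and Lcn2 at 3.36, the last beyond all other features.

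Among the features listed as far higher in wounded skin, wounded 1 was not generally low. In the limma fit 1023 of 12769 features, or 8.01%, were higher at an adjusted p under 0.05. Of the 137 among them that were at least 4-fold higher, its value was the highest of the 4 wounded samples in 63 and the lowest in 25. Its median deviation from the wounded mean over these features was 0.25, against -0.13 to 0.01 for the other wounded samples. Lcn2 was the only one of the 137 in which wounded 1 lay at least 1 below the other 3. The 137 were picked with wounded 1 in the fit, so a feature that was low in it was less likely to be listed. Over all 12769 features, wounded 1 lay that far below in 21, and wounded 2 to 4 in 14, 18 and 82. Wounded 1 was also the highest wounded sample for both S100a9 probes and for the dimmer S100a8 probe. On the brighter S100a8 probe it came after wounded 2.

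**Figure D4:**
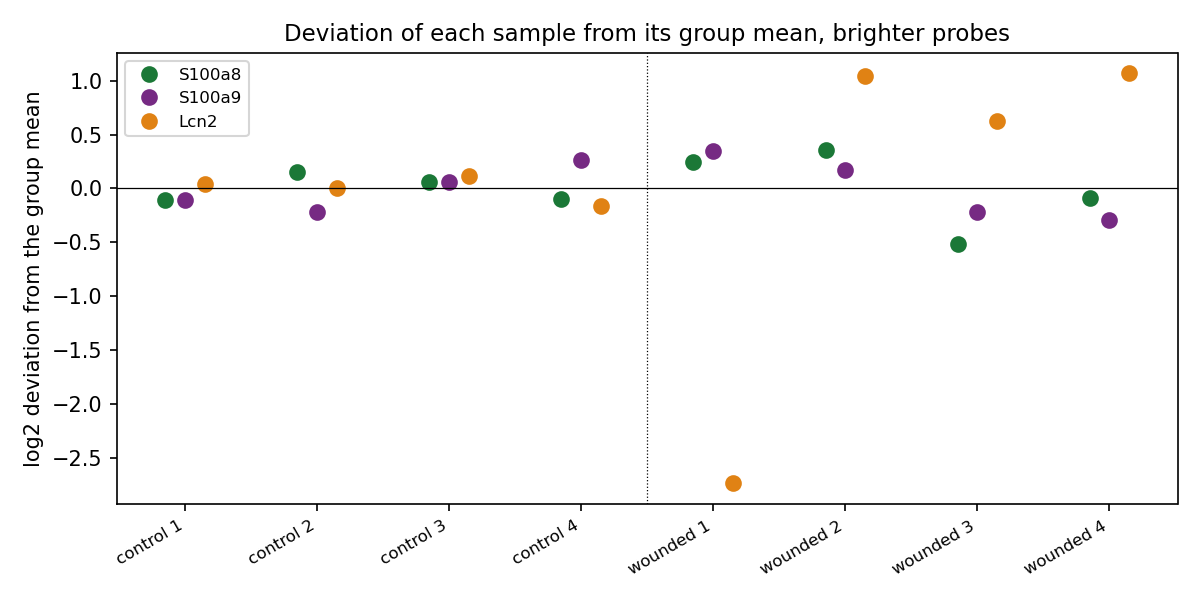
Deviation of each sample from its own group mean (vertical axis, log2) for the brighter probe of each gene in the 8 samples (horizontal axis). For wounded 1 the deviation is 0.25 for S100a8, 0.35 for S100a9 and -2.74 for Lcn2, while all control deviations lie within 0.27 of 0.

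Variation among the wounded samples thus had a different order for Lcn2 than for the S100 pair. In wounded 1 to 4 the deviations from the wounded mean were 0.25, 0.35, -0.52 and -0.08 for S100a8. They were 0.35, 0.17, -0.22 and -0.30 for S100a9. For Lcn2 they were -2.74, 1.05, 0.62 and 1.07. In these quantile-normalised values, wounded 1 and wounded 2 were above the mean and wounded 3 and wounded 4 below it for both S100 genes. The authors' deposited log2 table kept this split for the brighter S100a8 probe but not for the brighter S100a9 probe. There S100a9 was 13.51 in wounded 2 and 13.53 in wounded 3, around a wounded mean of 13.525. With 4 samples in a group, no p is given for their likeness. The wounded SDs were 0.39 for S100a8 and 0.31 for S100a9, above the medians of 0.29 and 0.27 for features of like signal. Of such features, 65 of 231 had a larger SD than S100a8 and 25 of 81 a larger SD than S100a9.

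The Lcn2 upstream stretch holds matches to 2 motifs that the S100a9 stretch does not. It lies on the minus strand at chr3:36081852-36082030 of GRCr8, from 250 to 72 bases before the start used for the promoter, and is written 5′ to 3′. The RefSeq gene annotation has Lcn2 begin upstream of that start. The rest of the 250 bases searched therefore lies within the annotated gene and is not shown. The first capitals mark the NF-kB match and the second the C/EBP match.
Lcn2: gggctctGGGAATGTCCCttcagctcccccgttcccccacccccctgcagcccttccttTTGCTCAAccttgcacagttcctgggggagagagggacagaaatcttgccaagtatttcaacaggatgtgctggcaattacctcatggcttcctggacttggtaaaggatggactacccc

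The NF-kB letters matched on both strands in Lcn2, from -243 to -234 and from -242 to -233, so that the 2 matches overlap and make 1 stretch. Of all 33469 promoters, 16.4% held such a match. The C/EBP letters matched once, from -191 to -184, and 9.22% of promoters held them. The AP-1, STAT and TATA box letters were not in the 250 bases searched, and were in 6.34%, 7.67% and 12.9% of promoters. These matches are descriptions of letters, and no binding was measured. In the gene table Lcn2 lies on chromosome 3 between Bbln and Ptges2.

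Among the 12769 features the differences of the 3 genes were at the upper end. S100a9 was the first by log2 difference with the offset of 50, S100a8 the eighth and Lcn2 the eleventh. Without wounded 1, Lcn2 was the seventh and S100a8 the tenth. A difference of at least 4 on the log2 scale was measured for 21 features, or 0.164%. The median over all features was -0.05. For all 6 probes of the 3 genes the 4 wounded values lay above the 4 control values, which was so for 1120 of 12769 features, or 8.77%. The genes were chosen on this contrast, so nothing is read from their count or their ranks.

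**Figure D5:**
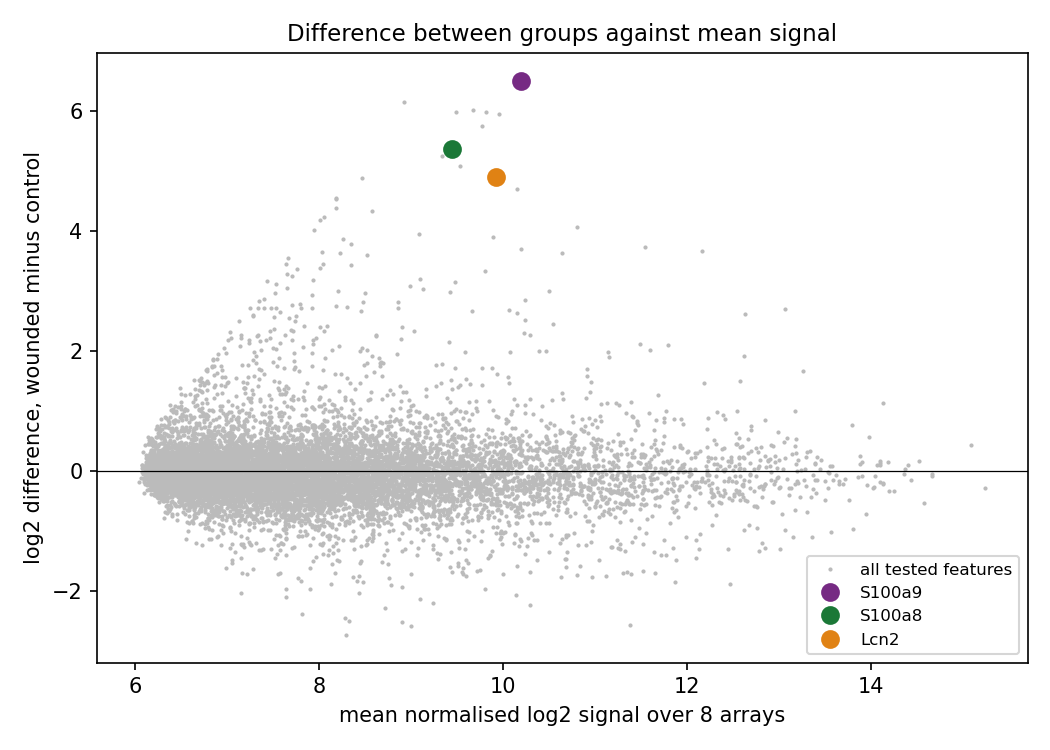
Log2 difference between wounded and control skin (vertical axis) against the mean log2 signal over 8 arrays (horizontal axis) for 12769 tested features, with S100a8, S100a9 and Lcn2 marked. The 3 genes lie among the 21 features with a difference of at least 4.

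S100a8 and S100a9 shared the split between the groups, and over all 8 samples together less of the variation within them. Pearson r of their log2 signals over the 8 samples was 0.997, and 0 of the other 12754 features had a higher r with S100a8 than S100a9 had. For S100a9, 3 features had a higher r than S100a8. The r of Lcn2 was 0.89 with each of them, and 518 features had a higher r with S100a8 than Lcn2 had, and 550 with S100a9. The samples fall into 2 clusters, the groups, so that these values mostly restate the difference between wounded and control skin, and they are given as a description over 8 arrays. Deviations from the group means leave that difference out. Their r over the 8 samples was 0.52 between S100a8 and S100a9, and 1711 of 12754 features had a higher r with S100a8. That r pools wounded samples with dim control readings. In controls 1 to 4 the deviations were -0.11, 0.15, 0.06 and -0.10 for S100a8, and -0.11, -0.22, 0.06 and 0.27 for S100a9. An r within the wounded samples alone was not computed. For the deviations over all 8 samples, Lcn2 had an r of -0.31 with S100a8 and -0.61 with S100a9. The deviations of Lcn2 are mostly that of wounded 1. Outside the 3 genes, the feature most like S100a9 was ENSRNOG00000002802, with r = 0.999, and the one most like S100a8 was ENSRNOG00000006151, with r = 0.996. ENSRNOG00000002802 was found on 0 of 4 control arrays and had a log2 signal of 10.18 ± 0.18 (SD, n = 4) in wounded skin. ENSRNOG00000006151 was likewise found on 0 of 4 control arrays, and had 8.69 ± 0.17 (SD, n = 4) in wounded skin. Neither ID has a symbol in the files. Both passed the filter through the wounded arrays alone, with control values at the floor of the scale, so an r near 1 was to be had from the split of the groups and says nothing more of likeness.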

How the data were processed

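RNA of 8 skin samples was turned into cRNA carrying biotin and hybridised, 1 sample per array, to Rat MI-Ready arrays of printed oligonucleotides, per the labels' protocols. Per the file headers, a GenePix 4000B scanner was used at 635 nm and a gain of 650, and GenePix Pro 4.1.1.4 read the spots and applied no normalization. The deposited scanner files hold linear spot intensity. A further deposited table gives log2 values by the authors, which equalled log2 of background-subtracted median intensity plus 1 constant per array, within 0.011, for 100% of the probes compared, with column medians of 6.98 to 7.06.

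From the scanner files, median pixels were corrected by normexp (offset 50), 1240 control, blank or unnamed spots and 65 bad spots were left out, and log2 values were quantile normalised with limma 3.58.1 in R 4.3.3. Probes found on at least 4 arrays were kept (19444), with the brightest per Ensembl ID, giving 12769 features. A 2-sided limma fit with a variance trend, Benjamini-Hochberg adjusted over all features at 0.05, gave the standard errors and the counts over all features. It was tested on simulated data. The number of arrays limits the precision.

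The genes, motifs and lists were chosen with earlier results of these data known. The distances of single samples were examined after the low Lcn2 value of wounded 1 had been seen. The pairing of the 3 Ensembl IDs with symbols came with the choice of genes. The RefSeq gene table gives an Ensembl ID in 0 of 47357 rows, so the pathway and cell marker lists could not be matched and were not analysed here. Named IDs follow the rule of highest likeness, with at most 2 printed. Alternatives changed the background correction, normalization, filter, probe rule, source of values and fit, or left out samples.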

Additional observations from a re-analysis of the deposited data

Results flagged for a closer look

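One of the 12 sets of 4 values, 6 probes in 2 groups, had a sample far from the others. The log2 signal of the brighter Lcn2 probe was 9.63 in wounded 1, where wounded 2 to 4 lay between 12.99 and 13.44. Its distance to the nearest sample was 88.3% of the range of the group, and 82.9% is the limit for 4 samples. Chance sets apart about 1 in 20 such sets, and over all features 5.49% of features had a wounded sample past that limit. On the dimmer Lcn2 probe wounded 1 was also the lowest wounded sample, at 8.17, and wounded 2 to 4 lay between 10.77 and 11.95, a distance under that limit. The cause was not tested.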

How the results depend on the processing

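The difference between wounded and control skin kept its direction for all 3 genes under each of 23 alternatives per gene. Of these, the filters on found probes and the replicate block described below could not change the differences. The genes were also chosen on this contrast, so the kept direction is only a description. The use of the dimmer probe was added after the data had been seen. The S100 differences moved by more than 1 SD under some settings. They were 6.03 for S100a8 and 7.09 for S100a9 with an offset of 10, 6.44 and 7.42 with local background subtracted, and 6.53 and 7.50 with the authors' values. The dimmer probe gave 4.83 for S100a8. No alternative moved Lcn2 by more than its SD, which wounded 1 makes large. Leaving out 1 sample gave 5.25 to 5.54 for S100a8, 6.39 to 6.61 for S100a9 and 4.54 to 5.81 for Lcn2, the last without wounded 1. Over all features, 1023 were higher and 1232 lower. Median scaling gave 960 and 761 and no normalization 862 and 511. With probes found on all 8 arrays, which tests fewer features, 625 were higher. The cause of the moves with scaling was not tested. Leaving out 1 sample gave 840 to 1058 higher and 890 to 1321 lower. A replicate block on the sample number gave 987 higher and 1079 lower features. The 3 differences were the same, which a balanced block fixes in advance. Same-numbered samples deviated with r of -0.28 to -0.01 and 0 of 8 samples were closest to their own number. Between 43.5% and 51.4% of probes were found per array, and control readings near background limit the fold sizes.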
